A study of Mus musculus with 4 samples.

Results

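The genes described here are 10 genes of major histocompatibility complex (MHC) class II antigen presentation, H2-Aa, H2-Ab1, H2-Eb1, Cd74, Ciita, H2-DMa, H2-DMb1, H2-Oa, H2-Ob and Ctss. They were taken by symbol from 23282 gene rows, each symbol matched a row, and all 10 passed the filter on low values that 15164 rows passed (a normalized read count of 4 or more on average). Gene expression had been measured in lung tissue of CDF1 mice by 3′ mRNA sequencing, with 1 library for each of 4 groups and therefore no replicates. The groups crossed high-intensity treadmill exercise (E) with tumor (T). The normal control, E(-)T(-), had neither, and the normal exercise group, E(+)T(-), had exercise alone. The cancer control, E(-)T(+), had tumor alone, and the cancer exercise group, E(+)T(+), had both. Mice of both tumor groups had been injected through the tail vein with CT26, a murine colorectal cancer line, and their lungs hold whatever tumor grew there. The labels give postnatal day 28 for every library and 10 mice in each group, while the study describes male mice bought at 4 weeks of age before the experiment, so that their age when lungs were taken may be another. Whether a library came from 1 mouse or from a pool was not stated for lung.

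MHC class II molecules carry peptides from endosomes to the cell surface, where CD4 T cells read them. An alpha and a beta chain pair in the endoplasmic reticulum with the invariant chain, which blocks the groove and guides the complex to endosomes. There cathepsin S trims the invariant chain, the remaining fragment is exchanged for antigen peptides with the help of H2-DM, and H2-O holds H2-DM back. The class II genes are switched on together by the coactivator CIITA, which does not bind DNA itself and docks on factors at their promoters. In lung, B cells, dendritic cells and macrophages carry class II, and in mice alveolar type 2 epithelial cells do so as well.

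The values are log2(normalized read count + 1) as deposited. A difference is the difference of 2 such values and was counted at 2-fold or more. Since the files allowed whole reads to be recovered, reads are given too, and read ratios carry 95% exact (Clopper-Pearson) intervals that cover counting error only. The libraries held from 9354541 to 13367976 reads on gene rows, and 3 reads, the floor used here, corresponded to 0.224 to 0.321 CPM (counts scaled to a common library total). The share of reads from hemoglobin genes was 14.33% in the normal control, 14.17% with exercise alone, 1.43% with tumor alone and 31.43% with both. In the tissue check, all 12 alveolar type 2 markers had reads in every library, and their summed normalized counts were 229850, 277664, 32312 and 189668. Wherever 4 values follow each other here without group names, they are in the order of no exercise and no tumor, exercise alone, tumor alone, and both. Reads of 8 genes that were frequent in the cancer control and absent from the normal control were present in normal exercise, at a median of 1.46% of their level in the cancer control. This share was taken out of normal exercise. The sign and the side of the 2-fold limit then stayed the same for all 20 differences of the 10 genes that use this library. Most of these genes are low in the cancer control, and so small a share of it could hardly move them. This is therefore no test of their differences.

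Most of these genes lie side by side. On mm10, 7 of the 10 lie within chr17:34092340-34316674, a stretch of 224.3 kb that holds H2-Oa, H2-DMa, H2-DMb1, H2-Ob, H2-Ab1, H2-Aa and H2-Eb1. Ciita lies at chr16:10480059-10528418 and Ctss at chr3:95526786-95556403, both on the plus strand, and Cd74 on another chromosome. Some overlap other genes, and the use of strand in counting was not stated, so reads of such pairs cannot be told apart. H2-Oa lies over all of its 2895 bases opposite to BC051537, which had log2 values of 4.78, 4.21, 0.08 and 4.21. H2-DMa overlaps Brd2 on the opposite strand over 3094 bases, and Ciita overlaps Dexi over 25888 bases. The mm10 reference is of a C57BL/6 mouse, whose class II alleles differ from those of the BALB/c and DBA/2 parents of CDF1. This can lower the number of reads that align to a gene alike in all 4 libraries, and its part in the levels was not tested.

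Class II promoters are known for a shared layout, an X box bound by the RFX complex followed at a fixed distance by a Y box bound by NF-Y, and this is where CIITA docks. The promoter windows of RefSeq (GRCm38.p6, 250 bases before to 50 after a start site) were searched for GNAAC, a core of the X box, followed after 15 to 40 bases by GATTGG, the core of the Y box, on both strands. The spacing was chosen to suit the known layout. A window was matched for 7 of the 10 genes, all but H2-Ab1, Cd74 and Ciita. The pair was present for 5 of the 7, namely H2-Aa, H2-Eb1, H2-DMb1, H2-Oa and H2-Ob, and in 1.45% of all 32851 windows. GATTGG alone was in 16.1% of windows. Of 2 windows for H2-DMa, 1 held GATTGG and neither held the pair. The window of Ctss held neither but held GAAA followed after 2 bases by a further GAAA, the core of an interferon-stimulated response element, which 3.44% of windows hold on either strand. Here are stretches of 4 of the 5, which show the shared layout, and that of Ctss, which differs. The stretch of H2-DMb1 is left out because its pair lies inside the gene as annotated by GENCODE. Capitals mark the matched letters, and each stretch is written 5′ to 3′ on the strand of its gene.
H2-Aa, chr17:34287847-34287924, minus strand: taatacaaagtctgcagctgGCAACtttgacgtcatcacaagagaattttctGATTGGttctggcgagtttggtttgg
H2-Eb1, chr17:34305756-34305832, plus strand: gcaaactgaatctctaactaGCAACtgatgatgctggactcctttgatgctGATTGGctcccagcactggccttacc
H2-Oa, chr17:34092283-34092340, plus strand: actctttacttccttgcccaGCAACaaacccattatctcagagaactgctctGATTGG
H2-Ob, chr17:34238798-34238872, plus strand: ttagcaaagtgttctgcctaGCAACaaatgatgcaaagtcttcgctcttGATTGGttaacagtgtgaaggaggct
Ctss, chr3:95526715-95526785, plus strand: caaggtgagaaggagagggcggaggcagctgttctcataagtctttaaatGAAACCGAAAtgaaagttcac
The cores were 27 bases apart in H2-Aa, H2-DMb1 and H2-Oa, 26 in H2-Eb1 and 24 in H2-Ob. GATTGG began 49 bases before the RefSeq start site in H2-Aa, 60 in H2-Eb1, 62 in H2-DMb1, 44 in H2-Oa and 58 in H2-Ob. In H2-Oa it began only 5 bases before the GENCODE start. A match describes the letters and is not a measured binding site.

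The alpha and beta chains were lowest in the cancer control lung, far below the other 3 libraries. H2-Aa, the alpha chain of I-A, had log2 values of 13.15 in the normal control, 13.44 in normal exercise, 8.87 in the cancer control and 12.38 in cancer exercise. In reads these were 10718, 12055, 426 and 4543. The cancer control thus had 426 reads where the next lowest library had 4543. H2-Ab1, the beta chain of I-A, had 11.87, 11.68, 7.88 and 11.17 in the same order. H2-Eb1, the beta chain of I-E, had 12.37, 12.32, 7.90 and 11.46. Cd74, the invariant chain, had 12.07, 12.09, 8.19 and 11.27, and its first 2 values differ by less than counting error. The summed normalized count of these 4 genes was 22456 in the normal control. Relative to it the sum stood at 106% in normal exercise, 5.48% in the cancer control and 57.4% in cancer exercise.

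**Figure D1:**
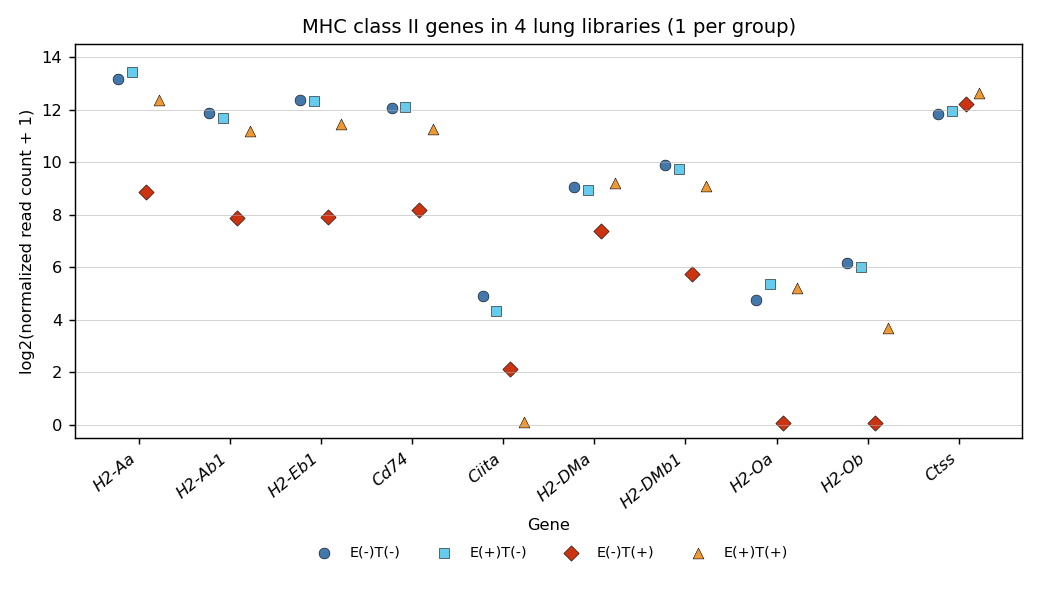
Deposited log2(normalized read count + 1) of the 10 class II genes (x axis), 1 point for each of the 4 libraries, with no error bars because each group has 1 library. The E(-)T(+) point is the lowest for 8 of the genes, the exceptions being Ciita, where E(+)T(+) is lowest with 0 reads, and Ctss, which lies between 11.84 and 12.63 in all libraries.

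The genes of peptide loading split into well-measured and barely measured ones. H2-DMa, the alpha chain of the peptide exchanger H2-DM, had log2 values of 9.07, 8.94, 7.37 and 9.19. H2-DMb1, a beta chain of H2-DM, had 9.89, 9.73, 5.75 and 9.11. Both were lowest in the cancer control, H2-DMb1 by far more than its partner. H2-Oa, the alpha chain of the H2-DM inhibitor, had 31, 44, 0 and 31 reads in the same order. H2-Ob, its beta chain, had 82, 70, 0 and 10 reads. Neither H2-O chain thus had a read in E(-)T(+), which at that depth allows up to 0.321 CPM. Ctss, the cathepsin that trims the invariant chain, had log2 values of 11.84, 11.95, 12.23 and 12.63. Ctss alone of the 10 genes was not low in any library. Ciita, the coactivator, had 34, 21, 3 and 0 reads. Its reads were few in both tumor libraries, and the 0 in E(+)T(+) allows up to 0.224 CPM there.

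The tumor in mice that did not exercise went with the largest median difference of these genes among the 5 comparisons. In E(-)T(+) against E(-)T(-), 9 of the 10 were lower by 2-fold or more, Ctss was 0.39 higher, and the median log2 difference was -4.07. Of all filtered genes, 25.7% were lower by 2-fold or more and 46.2% passed the limit either way, with a median of -0.03. H2-Eb1 was 22.2-fold lower, a log2 difference of -4.47 with a read-ratio interval of -4.68 to -4.28. H2-Aa was 19.5-fold lower (-4.28, interval -4.43 to -4.15). H2-Ab1 was 15.9-fold lower (-3.99, interval -4.20 to -3.80). Cd74 was 14.8-fold lower (-3.89, interval -4.07 to -3.71), an interval that overlaps that of H2-Ab1 and lies nearer to 0 than those of H2-Eb1 and H2-Aa. H2-DMb1 was 17.7-fold lower (-4.14, interval -4.62 to -3.76), whereas H2-DMa was 3.25-fold lower (-1.70, interval -1.97 to -1.45). The intervals of the 2 H2-DM chains do not overlap. With E(-)T(+) set at the floor of 3 reads, H2-Ob was 21.2-fold lower and H2-Oa 8.01-fold lower. Their exact intervals reach down to 16.9-fold and 6.14-fold. Ciita went from 34 reads to 3, and its log2 read ratio had an interval from -5.48 to -1.47. These are intervals of counting error, and how far 2 lungs of 1 group differ was not measured.

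**Figure D2:**
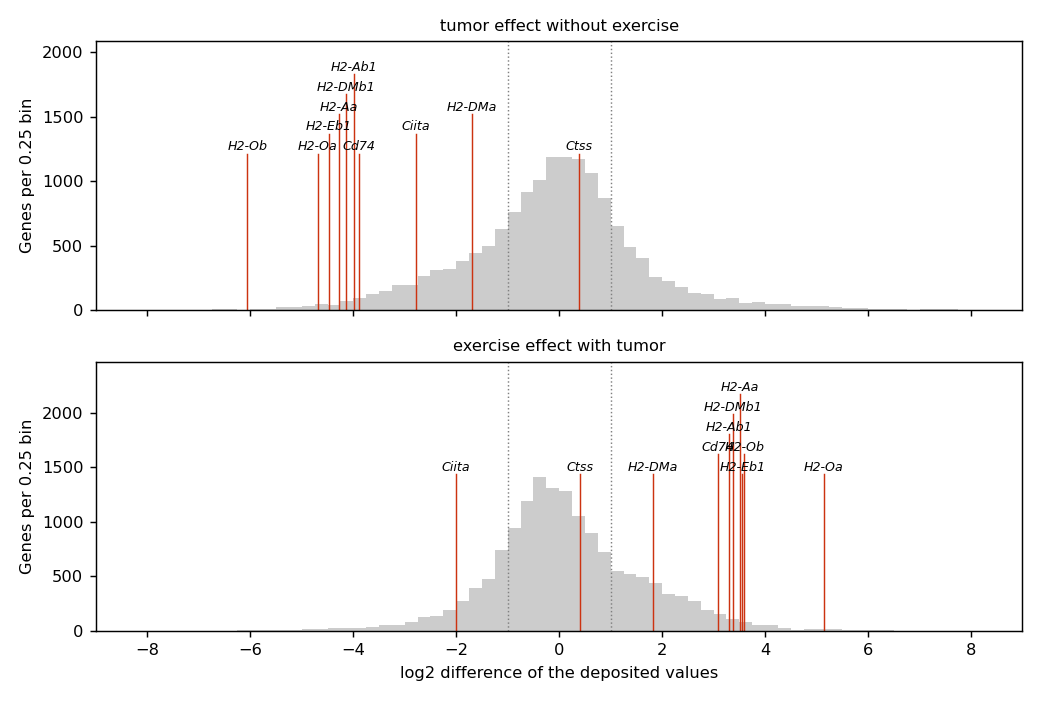
Histograms of the log2 differences of all filtered genes in bins of 0.25 (gray bars, y axis in genes per bin), with red lines at the 10 class II genes, for the tumor effect without exercise (top) and the exercise effect with tumor (bottom). Dotted lines mark 2-fold. In the top panel 9 of the 10 lines lie left of the lower limit, and in the bottom panel 8 lie right of the upper limit, Ciita lies left of the lower limit and Ctss lies between them.

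Exercise in tumor-bearing mice went with higher levels of most of the genes. In E(+)T(+) against E(-)T(+), 8 of the 10 were higher by 2-fold or more, with a median log2 difference of 3.33. Among all filtered genes 24.3% were higher by 2-fold or more, 17.7% lower and 42.0% past the limit either way, with a median of 0.01. This comparison uses the same E(-)T(+) library as the one before it, so low values there enter both. H2-Eb1 was 11.8-fold higher (3.56, interval 3.36 to 3.77) and H2-Aa 11.4-fold higher (3.51, interval 3.36 to 3.65). H2-Ab1 was 9.78-fold higher (3.29, interval 3.09 to 3.51), and Cd74 8.46-fold (3.08, interval 2.90 to 3.27). H2-DMb1 was 10.3-fold higher (3.37, interval 2.96 to 3.85). H2-DMa, again with the smaller difference of the H2-DM pair, was 3.54-fold higher (1.82, interval 1.56 to 2.10). H2-Oa went from 0 to 31 reads, which is 11-fold more than the floor, and its exact interval starts at 8.44-fold. H2-Ob went from 0 to 10 reads, 3.56-fold higher against the floor, with an interval that starts at 2.39-fold. Ctss was 0.40 higher as deposited and 0.21 lower with scaling by library totals alone, a log2 difference of -0.21. Ciita, at 3 reads against 0, passed the limit downward by its log2 values of 2.12 and 0.13, but the upper end of its interval, 1.37, allows a higher level as well.

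Hemoglobin took unequal shares of the reads in these libraries, and the scaling was therefore varied. With library totals alone in place of the deposited scaling, the median of all filtered genes was -0.59, and the higher genes made up 31.6% of those past the limit in place of 57.8%. Of the 10 genes 8 were higher and 1 lower under that scaling too, and their median was 2.72, which is 3.32 above that of all genes. With the deposited scaling it was also 3.32 above. A change of scaling shifts all genes of a library by about the same amount, so this equality is no test of the class II difference.

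Exercise without tumor left none of the genes past the limit. In E(+)T(-) against E(-)T(-), 0 of the 10 differed by 2-fold or more, where 9.98% of all filtered genes did, 5.28% higher and 4.7% lower. Their log2 differences had a median of -0.08 and ran from -0.57 for Ciita to 0.60 for H2-Oa. Among genes with more reads, H2-Aa was 0.28 higher (interval 0.24 to 0.32) and H2-Ab1 0.19 lower, a difference of -0.19 (interval -0.25 to -0.13). H2-Eb1 differed by -0.05 (interval -0.10 to 0.00), so the 3 chains did not share a direction. Cd74 differed by 0.02 (interval -0.04 to 0.08) and by -0.07 under both other scalings. With 1 library a group, no test shows that the levels were alike.

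With exercise in both groups, 8 of the 10 genes were at lower values with tumor and 2, H2-DMa and Ctss, at higher ones. In E(+)T(+) against E(+)T(-), 3 of the 10 were lower by 2-fold or more and none higher, with a median of -0.72. Of all filtered genes 13.0% were lower to that extent and 27.8% passed the limit either way. H2-Aa was just past the limit at -1.06 (interval -1.11 to -1.01). H2-Ob was lower by more, at -2.35 (interval -3.58 to -1.50). Ciita went from 21 reads to 0, 5.50-fold lower against the floor, with an exact interval that reaches down to 4.09-fold. H2-Eb1 at -0.86, Cd74 at -0.82, H2-DMb1 at -0.62 and H2-Ab1 at -0.51 stayed within 2-fold. H2-Oa, at -0.16 (interval -0.87 to 0.54), did not differ beyond counting error. Ctss was 0.68 higher (interval 0.62 to 0.74). H2-DMa was 0.25 higher as deposited but -0.16 with library totals alone. Under library totals alone 6 of the 10 were past the limit, all lower, and among all genes past it 28.2% were higher in place of 53.5%.

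Against the normal control, the lung of cancer exercise had 7 of the 10 genes at lower and 3 at higher values, most within 2-fold. In E(+)T(+) against E(-)T(-), 2 of the 10 were lower by 2-fold or more, against 14.4% of all filtered genes, and 29.2% of all genes passed the limit either way. The first was Ciita, from 34 reads to 0, 8.24-fold lower against the floor with an interval that reaches down to 6.34-fold. The other was H2-Ob, at -2.47 (interval -3.69 to -1.62). The classical chains lay together, with H2-Ab1 at -0.70, H2-Aa at -0.78 and H2-Eb1 at -0.91, and Cd74 was at -0.81. H2-Oa was at 0.44, H2-DMa at 0.12 and Ctss at 0.79. The first 2 of these turned to -0.04 and -0.37 with library totals alone, whereas Ctss kept its direction. That scaling put 7 of the 10 past the limit, all lower, and left 24.3% of all genes past it higher in place of 50.7%. With totals counted without hemoglobin, the numbers were 3 of 10 and 40.1%, and H2-DMa was at -0.05.

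**Figure D3:**
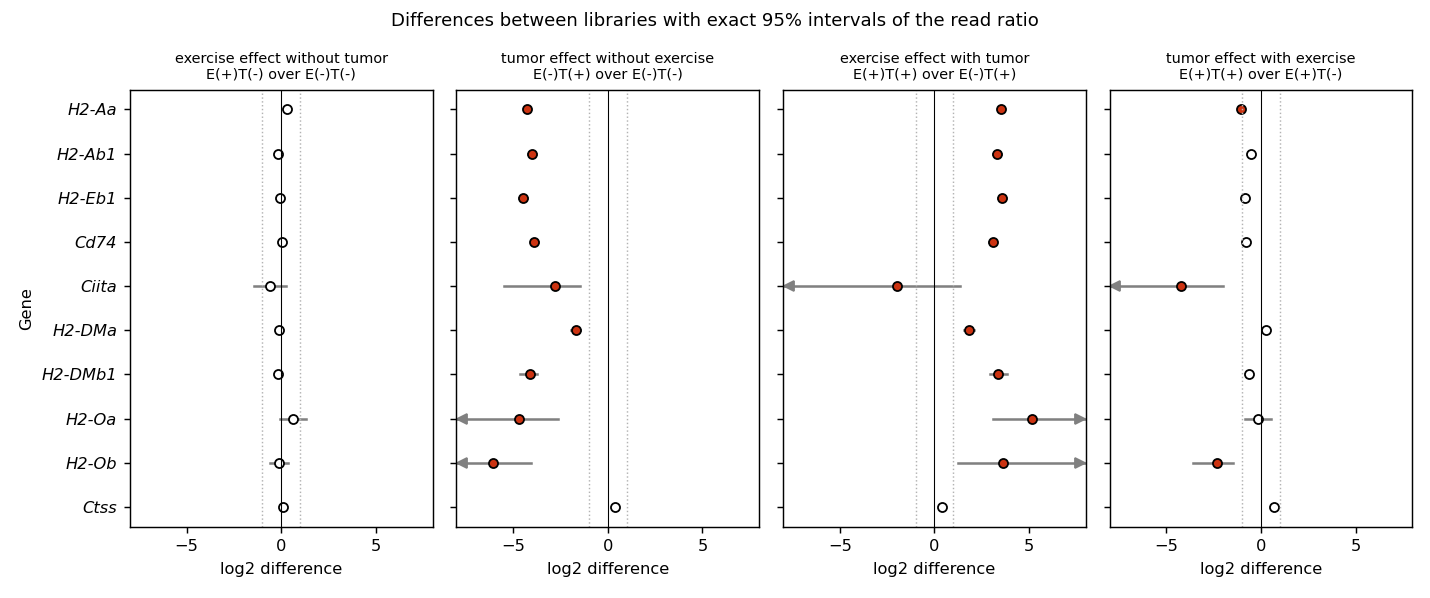
Differences of the deposited log2 values for the 10 genes (rows) in 4 comparisons (panels), with gray bars for the exact 95% interval of the read ratio and arrows where 1 library has 0 reads and the interval has no end. Filled points are past 2-fold (dotted lines); 9 are filled in the tumor effect without exercise, 9 in the exercise effect with tumor, 3 in the tumor effect with exercise and none in the exercise effect without tumor.

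A single fit across all 4 libraries used exercise and tumor as factors. It leaves 1 degree of freedom for the spread, which is then the interaction of the factors, and draws each gene's spread towards that of all genes. The SE was 0.65 for H2-Aa, whose exercise difference was 0.28 without and 3.51 with tumor, and 0.52 for Ctss, where it was 0.11 and 0.40. Among the 10 genes the SE ran from 0.52 to 1.24, the highest being those of the low-count genes H2-Ob, H2-Oa and Ciita. By limma with Benjamini-Hochberg adjustment over all filtered genes, 3 of the 10 had a tumor coefficient past an adjusted p of 0.05, as did 3.26% of all genes. At an unadjusted p under 0.05, limma gave 7 of the 10 and 17.8% of all genes. H2-Eb1 had a tumor coefficient of -2.67 ± 0.65 (SE, limma adjusted p = 0.0377), H2-Aa one of -2.67 ± 0.65 (limma adjusted p = 0.0382) and Cd74 one of -2.36 ± 0.60 (limma adjusted p = 0.0444). H2-DMb1 was just short of it at -2.38 ± 0.65 (limma adjusted p = 0.0571), and so were H2-Ob at -4.21 ± 1.15 (limma adjusted p = 0.0574) and H2-Ab1 at -2.25 ± 0.63 (limma adjusted p = 0.0640). These 6 genes were lower with tumor in both pairs of libraries. For exercise, limma called 0 of the 10 and 0 of all genes, and at an unadjusted p under 0.05 it gave 6 of the 10 and 4.97% of all genes. With library totals alone the tumor count was 6 of the 10, and without a filter or without the trend on mean expression it was 0, so these calls rest on the settings of the fit.

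Proportions among the genes do not depend on how libraries are scaled, and so reads were set against those of Cd74 in the same library. Per 100 Cd74 reads, H2-DMb1 had 22.0, 19.5, 18.1 and 22.4. Its intervals overlap between the cancer control, 13.0 to 24.7, and the normal control, 20.6 to 23.5. H2-DMa had 12.4, 11.2, 56.6 and 23.7 per 100 Cd74 reads in the same order. Its interval of 46.0 to 69.4 in E(-)T(+) lies above that of 11.4 to 13.5 in E(-)T(-), and E(+)T(+) lies between them with 21.5 to 26.2. Ctss, which many phagocytes express, had 85.0, 90.7, 1660 and 258 per 100 Cd74 reads. Among the classical chains the shifts were smaller. H2-Eb1 had 123, 117, 81.9 and 114, and its interval in E(-)T(+), 68.1 to 98.4, lies below the others. H2-Aa had 211, 254, 161 and 216, and H2-Ab1 had 86.9, 75.3, 80.8 and 93.5. Ciita had 0.671 per 100 Cd74 reads in the normal control, 0.442 in normal exercise and 1.13 in the cancer control, where 3 reads give an interval of 0.232 to 3.34. In E(+)T(+) it had 0, with an upper limit of 0.175, below the lower limit of 0.464 in E(-)T(-). H2-Ob had 1.62, 1.47, 0 and 0.475, with an upper limit of 1.4 in E(-)T(+), and its share in E(+)T(+), 0.227 to 0.875, lies below that in E(-)T(-), 1.28 to 2.01. Its partner H2-Oa had 0.612, 0.927, 0 and 1.47, and its share in E(+)T(+), 0.997 to 2.09, lies above that in E(-)T(-), 0.415 to 0.869.

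**Figure D4:**
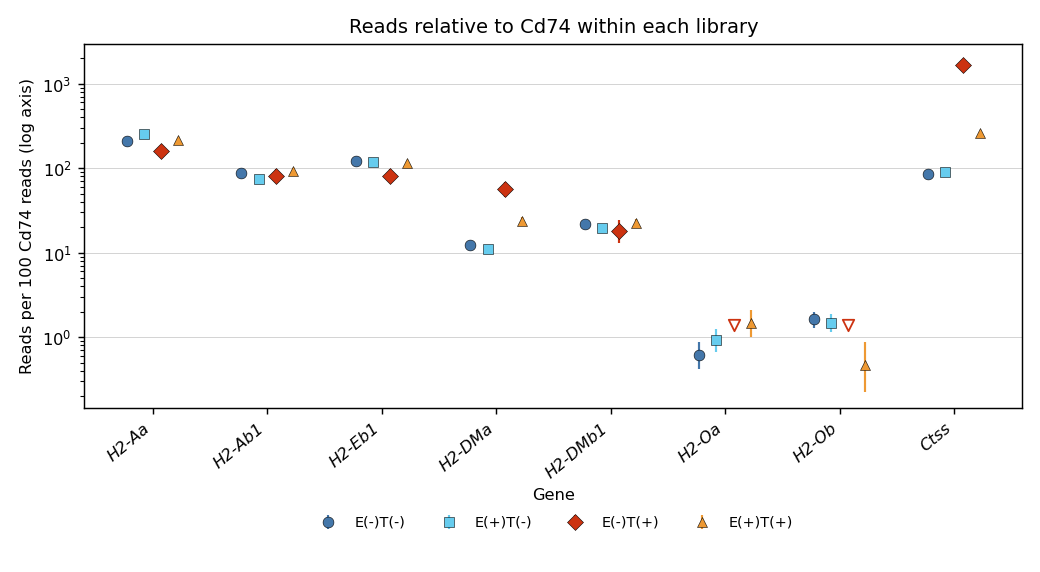
Reads per 100 Cd74 reads in the same library (y axis, log scale) for 8 of the class II genes, with exact 95% intervals of counting error as bars and open triangles at the upper limit where a library had 0 reads. H2-DMa stands at 56.6 and Ctss at 1660 in E(-)T(+), while H2-DMb1 lies between 18.1 and 22.4 in all libraries.

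Of the other chains of the same locus, H2-Eb2 and H2-Ea-ps were also lowest in the cancer control, but H2-Ea-ps stayed low in cancer exercise. H2-Eb2, a further beta chain, had 29, 21, 1 and 13 reads. The row H2-Ea-ps is the gene of the I-E alpha chain, which is a pseudogene in C57BL/6 but functional in H-2d mice such as CDF1. It had 351, 179, 13 and 32 reads in the same order. It was thus 4.29 lower in E(-)T(+) than in E(-)T(-) on the log2 scale, a difference of -4.29, and at -2.96 it was still lower in E(+)T(+), where its partner H2-Eb1 was at -0.91. Their intervals, -3.57 to -2.47 and -0.98 to -0.85, do not overlap. H2-DMb2 had 2, 12, 0 and 0 reads and did not pass the filter. It is a close copy of H2-DMb1, and reads that fit both could have been split between them.

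The factors that bind class II promoters are few, and a count over them says little. Of 7 genes of the RFX, NF-Y and CREB factors, 1 was lower by 2-fold or more in E(-)T(+) against E(-)T(-), where 25.7% of all genes were, and none was higher. That was Creb1, at -1.59, and the other 6 ran from -0.70 for Rfxank to 0.70 for Rfxap. In the exercise effect with tumor none of the 7 passed the limit, where 42.0% of all genes did. Of 12 genes of the interferon gamma pathway and of other factors upstream of Ciita, 3 were lower by 2-fold or more in E(-)T(+) against E(-)T(-) and none higher. Irf1, which helps to switch on Ciita, had -1.70. Ifng, the cytokine itself, went from 8 reads to 0, too few for a fold. In the exercise effect with tumor 6 of the 12 were higher by 2-fold or more, against 24.3% of all genes, and none lower. Irf1 was among them at 1.28. Spi1, the myeloid factor PU.1, was at 1.91.

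The lists for the endosomal side and for T cell partners are short as well, and counts over them say little. In E(-)T(+) against E(-)T(-), 20.6% of all genes were higher, 25.7% lower and 46.2% past the limit either way. Of 15 measured genes of endosomal processing and class II turnover, 4 were higher by 2-fold or more there and none lower. Ctsl, the cathepsin that trims the invariant chain in thymic epithelium, was at 3.86. The remaining 3, named here because they complete a short count, were Lgmn at 1.79, Ap1s1 at 1.19 and Ctsb at 1.10. Lamp1, a lysosomal membrane protein and the most abundant of the list, was at -0.20. In the exercise effect with tumor 1 of the 15 was higher and 4 were lower, against 24.3% and 17.7% of all genes, with Ctsl at -2.73 and the cathepsin inhibitor Cst3 at -1.36. Of 9 measured genes for T cell partners and costimulation, 3 were higher and 3 lower in E(-)T(+) against E(-)T(-). Among all genes these shares were 20.6% and 25.7%. Icosl, the ligand of ICOS on T cells, was at -3.23 and Cd40, through which T cells activate antigen-presenting cells, at -2.78. Mif, a cytokine that binds CD74, was at 3.18, and Cd44, which signals with CD74, at 0.72. In E(+)T(+) against E(-)T(+), Icosl was at 3.60, Cd40 at 2.48 and Mif at -2.07.

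Most genes of MHC class I presentation differed by less than 2-fold between the same libraries. Of 14 class I genes, which cover the heavy chains, beta-2 microglobulin, peptide transport and the immunoproteasome, 1 was lower by 2-fold or more in E(-)T(+) against E(-)T(-) and none higher, against 25.7% and 20.6% of all genes, with a median log2 difference of -0.15. The 10 class II genes had a median of -4.07 in that comparison, where the 1 class I gene past the limit was lower. That gene was Tapbpl, at -1.21. In E(+)T(+) against E(-)T(+) the class I median was -0.14, with 1 gene higher and 1 lower, against 24.3% and 17.7% of all genes. Psmb10 was the higher one at 1.08, and Tap2, of peptide transport, the lower one at -2.68. The summed normalized count of the class I genes was 66274, 73722, 65912 and 66250, most of it from B2m and H2-D1. Class I is carried by nearly all nucleated cells, whereas class II is carried by few cell types.

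Most markers of B cells and dendritic cells, and those of T cells, were lower and higher in the same comparisons as these genes. Most markers of monocytes and interstitial macrophages were not. Fewer cells of a type and less RNA per cell cannot be told apart in whole lung. Of all filtered genes, 25.7% were lower and 20.6% higher by 2-fold or more in E(-)T(+) against E(-)T(-). In E(+)T(+) against E(-)T(+) 24.3% were higher and 17.7% lower. Of 13 measured B cell markers, 12 were lower by 2-fold or more in the first comparison, with a median of -4.59. In the second, 11 of these markers were higher, with a median of 3.19, and 1, Cr2, was lower at -1.76. Their summed normalized count was 1686, 1584, 141 and 889. In E(-)T(+) 6 of the 14 listed had no read, Ms4a1, which encodes CD20, and Cd79a, a chain of the B cell receptor complex, among them. In E(+)T(+) only Pax5 was at 0, as it also was in E(-)T(-). Of 14 dendritic cell markers 10 were lower by 2-fold or more and 2 higher in E(-)T(+) against E(-)T(-), with a median of -2.75, and Cd209a had no read. Their sum did not follow, at 2205, 1705, 2935 and 2009, as Fscn1, which other cells express too, had 2115 reads in the cancer control. In E(+)T(+) against E(-)T(+) 9 were higher and 1 lower, with a median of 1.80.

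For the lists that follow, the shares of all genes are again 25.7% lower and 20.6% higher in the tumor effect without exercise. They are 24.3% higher and 17.7% lower in the exercise effect with tumor. Alveolar type 2 markers were lower by 2-fold or more in E(-)T(+) against E(-)T(-) for 12 of 12, with a median of -2.55. They were higher in E(+)T(+) against E(-)T(+) for 11 of 12, with a median of 2.40. None was at 0 reads. Of 12 measured alveolar macrophage markers 9 were lower and 2 higher in the tumor effect without exercise (median -2.68), and 9 were higher and 3 lower in the exercise effect with tumor (median 2.03), with sums of 10198, 8263, 8943 and 14319. Markers of monocytes and interstitial macrophages mostly differed from these, with 6 of 11 higher and none lower in E(-)T(+) against E(-)T(-) (median 1.73). In E(+)T(+) against E(-)T(+) 3 were higher and 3 lower (median -0.26). The 3 higher ones were Ly6c2 at 3.43, Ccr2 at 2.07 and Adgre1 at 1.46. They were at -0.81, -0.77 and -0.93 in E(-)T(+) against E(-)T(-). The 3 lower ones were C1qa at -1.27, C1qb at -1.11 and C1qc at -1.26. The sums of the list were 8517, 9846, 29540 and 24020. All 11 measured T cell markers were lower by 2-fold or more in E(-)T(+) against E(-)T(-) (median -3.07). In E(+)T(+) against E(-)T(+) 9 of them were higher and none lower (median 2.58), with sums of 1313, 1023, 143 and 851. Of 11 neutrophil markers 9 were higher by 2-fold or more in the tumor effect without exercise (median 2.01), with sums of 4109, 12507, 12025 and 210623. For 8 general leukocyte markers the sums were 9554, 9153, 4761 and 20152, so that E(+)T(+) held the most of these and not the most of the class II chains. The 8 genes chosen for many reads in the cancer control and none in the normal control had sums of 0, 277, 21683 and 2140. All 8 were lower by 2-fold or more in E(+)T(+) against E(-)T(+) (median -2.63), a direction that their choice by high reads in E(-)T(+) favours. The part that these cell types and the tumor cells have in the class II differences was not tested.

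**Figure D5:**
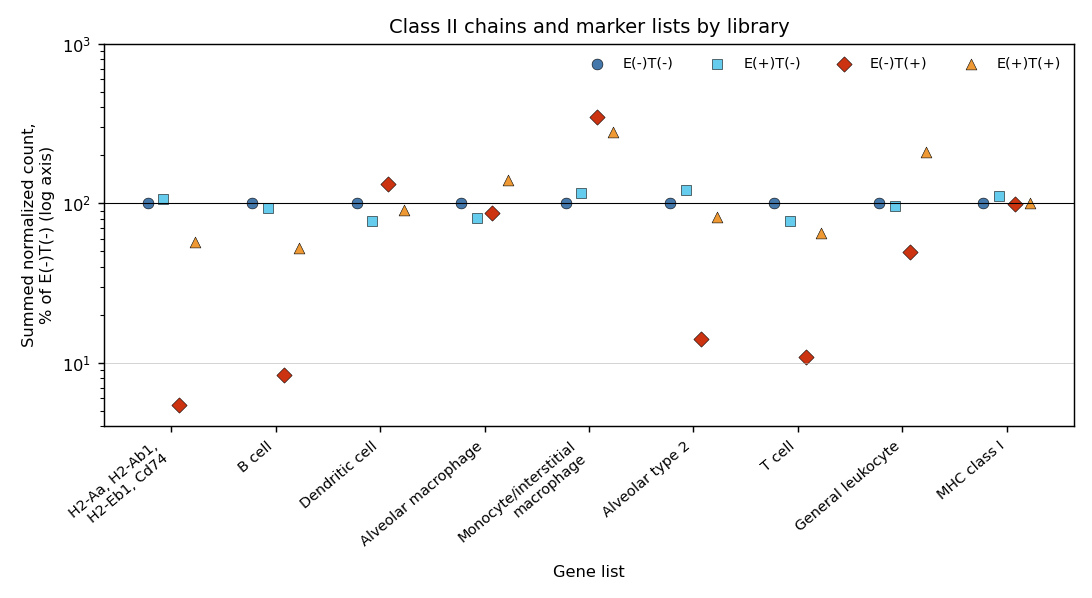
Summed normalized counts of the 4 genes H2-Aa, H2-Ab1, H2-Eb1 and Cd74 and of 8 gene lists, as a percentage of the E(-)T(-) library (y axis, log scale), 1 point a library. In E(-)T(+) the class II genes stand at 5.48% and the B cell, T cell and alveolar type 2 lists are also far below 100%, while the class I list lies near 100% in all libraries.

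The genes most like the class II genes in pattern were sought over the 4 libraries. The measure was the root mean square (RMS) log2 difference from the median centred profile of the 7 class II genes whose normalized counts averaged 50 or more, and the 11209 candidate rows had that level too. That profile stood at 1.19, 1.11, -2.77 and 0.47. The candidates had a median RMS difference of 1.67. The closest were Ear2, an RNase of eosinophils and macrophages, at 0.03 and Limch1 at 0.05. Then came Cmah, which makes a form of sialic acid, at 0.07, Lrat, which stores retinol as esters, at 0.08, and the neuropeptide gene Npw at 0.09. Clec3b, also called tetranectin, and Tek, the angiopoietin receptor of endothelium, were at 0.10, and Tmem204 at 0.11. Among the class II genes themselves H2-Ab1 was at 0.05, Cd74 and H2-DMb1 at 0.07, H2-Eb1 at 0.21 and H2-Aa at 0.24. H2-DMa, at 0.94, and Ctss, at 1.74, lay far from that profile. With 4 points a profile, many genes of different kinds can lie close to it.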

How the data were processed

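Lung RNA of 4 groups was sequenced by the authors from the 3′ end (QuantSeq), aligned with Bowtie2 to mm10 (per the submitters' processing notes), counted with bedtools coverage and normalized by the quantile method of edgeR; versions, annotation and strand were not given in the sources used here. The deposited values are log2(normalized read count + 1) at 3 decimals. Whole reads were recovered by inverting that adjustment (fitted dispersion 0.372), and 99.68% of values were returned to all 3 decimals, with a largest error of 0.00053. Rows whose normalized count averaged 4 or more were kept.

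Differences are of deposited log2 values, so folds understate changes of low genes that have reads in both libraries. Where 1 library has 0 reads, the fold of the deposited values is above that against the floor. For H2-Ob in the tumor effect without exercise these are 66.9-fold and 21.2-fold. Intervals and floors cover counting error only, since reads can be PCR copies of the same molecule. With 1 library a group the fit with limma 3.58.1 (R 4.3.3; lmFit, eBayes with trend), tested on simulated data, is the only test. Python 3.11.15, numpy 2.4.6, scipy 1.17.1 and pandas 2.3.3 were used. Coordinates are from GENCODE M21.

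The members and gene lists were chosen with earlier results of these data known. All 10 members are named; of other pathway genes, those with the highest counts or the largest tumor difference, and most short counts in full; some listed genes are not reported here. Other scalings, pseudocounts, filters and limits were tried.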

Additional observations from a re-analysis of the deposited data

Results flagged for a closer look

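For H2-Ab1 the exercise difference had opposite signs without and with tumor. It was -0.19 in E(+)T(-) against E(-)T(-) and 3.29 in E(+)T(+) against E(-)T(+), so that the second exceeded the first by 3.48 on the log2 scale. For H2-DMb1 the same differences were -0.16 and 3.37, which are 3.53 apart. Each group has 1 library, and the difference between the effects was not tested.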

How the results depend on the processing

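No paired analysis was possible because each group has 1 library. Nor could a library be left out of a group. Of 50 differences, 45 kept their sign and 42 their side of the 2-fold limit with library totals alone; 48 and 49 did so with totals without hemoglobin genes, and 50 and 49 with a pseudocount of 4, where Ciita in the exercise effect with tumor was at -0.85. In the tumor effect without exercise and in the exercise effect with tumor, the counts stayed within 1.5 times their reported value under every alternative run, and the median moved only in the second, to 2.72 with library totals alone. In the tumor effect with exercise, 6 genes were past the limit with totals alone (median -1.13), 1 with rows averaging 50 or more normalized counts (median -0.62) and 7 at a 1.5-fold limit, and totals without hemoglobin gave a median of -0.81. For tumor and exercise together these were 7 (median -1.28), 0 and 8, with a median of -0.95 without hemoglobin. Ciita, H2-Oa and H2-Ob averaged less than 50, so that the counts of 1 and 0 at that level are out of 7 genes. In the exercise effect without tumor 1 gene passed a 1.5-fold limit. The limma tumor calls were 6 with totals alone and 0 without a filter or without the trend. Depth limits Ciita, H2-Oa and H2-Ob, which had at most 34, 44 and 82 reads.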
